A study of Mus musculus with 4 samples.

Results

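Broad H2A.Z domains held in both genotypes were taken from the H2A.Z peak lists of wild-type and Anp32e knockout mouse embryonic fibroblasts. The domains were chosen by the measured positions and widths of their peaks. Each is a matched pair, in which a wild-type peak and a knockout peak overlapped each other by 1 bp or more and overlapped no other peak of the opposite list, with both peaks at least 3500 bp wide. There were 1061 such broad pairs among 28979 matched pairs, or 3.66% (95% interval 3.45 to 3.88%). The lists held 37667 wild-type and 41912 knockout peaks in all. H2A.Z had been mapped with ChIP-seq, in which DNA bound to the histone is recovered by chromatin immunoprecipitation and then sequenced. The wild-type cells were Anp32e+/+ and the knockout cells Anp32e-/-, from crosses of Anp32e+/- mice. Per the labels, both were on a C57BL/6 background, were grown from the torso of individual embryos of embryonic day 10.5 and were used at passages 5 to 10. Each genotype was represented by 1 H2A.Z library and 1 input library, and the inputs were not analysed here. How the knockout allele was made is not given in the sources used here.

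H2A.Z is a variant of histone H2A that replaces it in a part of the nucleosomes, above all beside the transcription start sites of genes and at enhancers. Dedicated remodelling complexes exchange H2A.Z into chromatin, and Anp32e is a histone chaperone that binds H2A.Z and takes it out. A peak list records where H2A.Z stood above background, so a broad peak is a stretch of neighbouring nucleosomes in which the variant was found without a break large enough to divide the call.

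With 1 library per genotype there was no replicate and no test between genotypes, and every value is a description of the 2 libraries. Intervals stand for counting error among peaks alone. They take peaks as independent of their neighbours and leave out the spread between cultures. The lists give the position of each peak and no height, score or read count, so sequencing depth is unknown and H2A.Z signal inside a domain could not be compared. Wider peaks can also come from a deeper library or a different calling threshold, and these cannot be told apart here from a difference between the cells. The widths of both peaks chose the pairs, so widths, width differences and boundary shifts are given as a description. Neither the loss of Anp32e nor the fibroblast identity of the cultures could be checked from peak positions. Positions are on build mm9 and count from 1. The gene tables and promoter sequences at hand are on another build (GRCm38), so genes and sequences at the domains were not analysed here.

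Most broad wild-type peaks had a broad knockout counterpart, while fewer of the broad knockout peaks had a broad wild-type one. The wild-type list held 1394 peaks of 3500 bp or wider, which is 3.70% of the list. The knockout list held 2734, or 6.52%, a ratio of 1.96 between the lists, whereas the ratio over peaks of any width was 1.11. The 1061 broad pairs took in 76.1% of the broad wild-type peaks (95% interval 73.8 to 78.3%) and 38.8% of the broad knockout peaks (95% interval 37.0 to 40.7%). These shares follow in part from the different widths of the lists. When the widest 5% of each list were used in place of a fixed width, 57.6% of the wild-type peaks and 51.8% of the knockout peaks lay in such pairs.

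The broad peaks outside the pairs had different counterparts in each list. In the wild-type list, 172 broad peaks had a single knockout partner narrower than 3500 bp, and 86 overlapped 2 or more knockout peaks. Another 66 overlapped a single knockout peak that also overlapped other wild-type peaks. Another 9 had no knockout partner (0.646%). In the knockout list, 1123 broad peaks (41.1%) had a single wild-type partner narrower than 3500 bp, and 466 (17.04%) overlapped 2 or more wild-type peaks. A further 22 overlapped a single wild-type peak that had several knockout partners, and 62 (2.27%) had no wild-type partner. Few broad peaks of either list were therefore without any peak in the other list, and the counts differed mainly through partners that were narrower or divided. A wider peak meets the limit of 1 bp of overlap more easily. The share without a partner over peaks of any width is not given here, so the low shares are not read as a trait of broad domains.

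**Figure D1:**
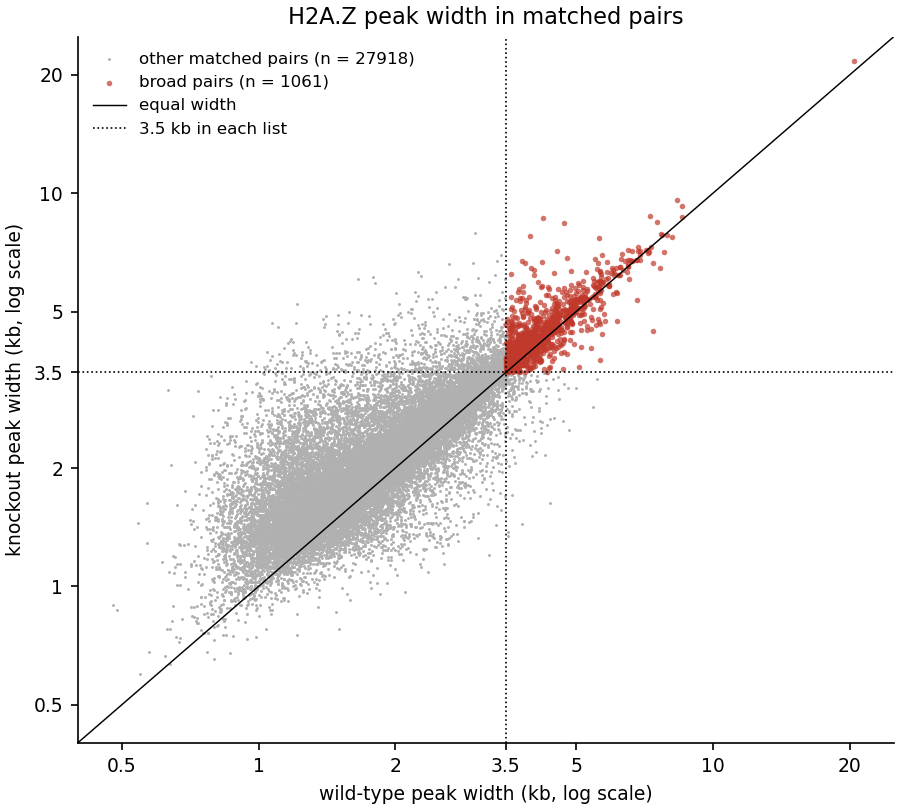
Width of the wild-type peak (x axis, kb, log scale) against width of the knockout peak (y axis, kb, log scale) in each matched pair; red points are the 1061 broad pairs, grey points the 27918 other matched pairs, the solid line is equal width and the dotted lines are the limit of 3.5 kb in each list. More red points lie above the line of equal width (791) than below it (269), and 1 pair near 20 kb stands far from all others.

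Widths of the broad pairs lay close to the lower limit, with a short tail. Wild-type peaks had a median width of 4057 bp, with quartiles of 3739 and 4635 bp. Knockout peaks had a median of 4306 bp, with quartiles of 3922 and 4947 bp. Both peaks reached 5000 bp in 144 pairs, 6000 bp in 50, 7000 bp in 16 and 8000 bp in 4. A single pair passed 10000 bp in both lists. Summed over the pairs, wild-type peaks covered 4603 kb and knockout peaks 4855 kb, of which 4487 kb lay in both. They made up 6.69% of all bases in wild-type peaks and 5.55% of all bases in knockout peaks. The order of widths was largely kept between genotypes. Of the 100 widest pairs by wild-type width, 75 were also among the 100 widest by knockout width, and over all broad pairs the Spearman rho of the 2 widths was 0.75. The rho was 0.793 over all matched pairs and 0.769 over the other matched pairs, so a kept order was not particular to broad pairs. The rho of the broad pairs describes pairs of a single set of libraries, and the limit on both widths narrows its range.

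At the limit of 3500 bp the pairs inside and outside were alike in size. The 3 pairs just inside had wild-type widths of 3501 bp each and knockout widths of 3779, 4628 and 3699 bp, on chromosomes 17, 19 and 19. The 3 pairs just outside had narrower peaks of 3499, 3498 and 3497 bp, on chromosomes 2, 2 and 4, beside partners of 3734, 3544 and 3560 bp. No gap in width separates the broad pairs from the remainder.

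Broad domains were mostly a little wider in the knockout. The median difference, knockout minus wild type, was 180 bp with a 95% interval of 157 to 198 bp, and its quartiles were -4 and 389 bp. In 791 of 1061 pairs (74.6%) the knockout had the wider peak, and among all matched pairs it did in 79.7%. The wild-type peak was wider in 269 broad pairs, or 25.4%, against 20.2% of all matched pairs, and 1 pair had equal widths. Relative to the wild-type width, the median gain was 4.21% in broad pairs and 11.2% in all matched pairs, whose median wild-type peak was 1852 bp. The gain in base pairs was of the same order, at 180 and 215 bp, and is divided by a larger width in the broad pairs.

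Large relative changes were few in the broad pairs. Width differed by 10% or less in 763 pairs (71.9%), compared with 39.5% of all matched pairs. The knockout peak was wider by 25% or more in 68 broad pairs (6.41%), against 27.1% of all matched pairs. It was narrower by 20% or more in 9 (0.848%), against 2.99%. The requirement that both peaks be broad removes pairs with a narrow partner, and so by itself lowers the number of large changes. It also lowers the median difference. When the mean of both widths had to reach 3500 bp, a rule chosen after seeing the data, the median difference was 245 bp and the knockout peak was wider in 77.4% of pairs.

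Sorted by the mean of both widths, the gain in base pairs was smallest in the narrowest pairs and showed no steady trend above 1000 bp. The median difference was 89.5 bp for the 302 matched pairs under 1000 bp. It was 215 bp for pairs of 1000 to 1500 bp, 194 bp for 2000 to 2500 bp and 262 bp for 3000 to 3500 bp. It was 239 bp for the 771 pairs of 3500 to 4000 bp, 259 bp for the 515 pairs of 4000 to 5000 bp and 234.5 bp for the 210 pairs of 5000 bp or more. The knockout peak was wider in 77.3%, 78.8% and 74.3% of the last 3 classes. As a share of wild-type width the median gain was 10.7% under 1000 bp, 18.3% in the class of 1000 to 1500 bp and 3.98% in the widest class.

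Lower and higher boundaries of the broad domains had similar median shifts. A boundary shift is positive here when the knockout boundary lay outside the wild-type one. The median shift was 76 bp at the lower coordinate (95% interval 62 to 83 bp, quartiles -21 and 201 bp) and 80 bp at the higher coordinate (95% interval 73 to 94 bp, quartiles -14 and 205 bp). In all matched pairs the medians were 93 and 95 bp. Of the 2122 boundaries of broad pairs, 1497 (70.5%) lay further out in the knockout and 622 (29.3%) further in, and 3 were at the same base. Regardless of direction the median boundary moved by 124.5 bp, close to the 129 bp of all matched pairs, and 42.0% of boundaries lay within 100 bp of each other. The limit on both widths removes pairs with a narrow partner, so it also removes some far-moved edges. Sorted by the mean of both widths instead, the median absolute shift was larger in wide pairs. It was 148.5 bp at 3500 to 4000 bp, 161.5 bp at 4000 to 5000 bp and 164 bp at 5000 bp or more. In the classes between 1000 and 3000 bp it lay between 122 and 139 bp.

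**Figure D2:**
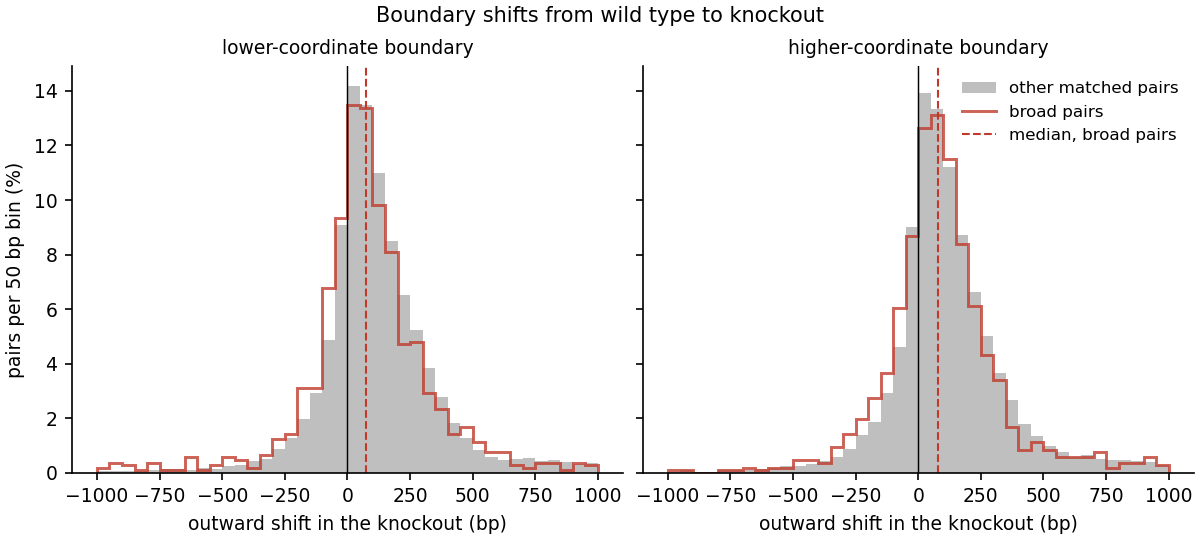
Outward shift of the knockout boundary relative to the wild-type boundary (x axis, bp) at the lower and the higher coordinate, as a percentage of pairs per bin of 50 bp (y axis); the red outline is the broad pairs, the grey area the other matched pairs, the dashed line the median of the broad pairs, and shifts beyond 1000 bp are not drawn. Both distributions peak just outside 0, with medians of 76 and 80 bp in the broad pairs, and the inward side holds a larger share of the broad pairs than of the other pairs.

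Outward movement on both sides was the most frequent pattern. Both boundaries lay further out in the knockout in 536 broad pairs (50.5%), against 59.6% of all matched pairs. In 424 pairs (40.0%, against 31.9%) one boundary lay further out and the other further in. Of these, 203 moved out at the lower coordinate and 221 at the higher one. Both boundaries lay further in in 98 pairs (9.24%, against 8.02%). Across the 1061 pairs the shifts of the 2 edges had a Pearson r of -0.03, with every edge called from the same 2 libraries. The larger of the 2 shifts had a median of 217 bp and the smaller one 70 bp.

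Gain and loss of covered sequence were unequal. Outward boundaries added 368 kb in the knockout and inward boundaries removed 116 kb, a net gain of 252 kb. The ratio of knockout to wild-type bases was 1.05 in the broad pairs and 1.14 in all matched pairs. Both genotypes covered the same sequence for most of each domain. The median broad pair had 93.2% of its joined extent covered in both lists (95% interval 92.9 to 93.6%, quartiles 88.7 and 96.05%). In all matched pairs the median was 85.6%. Of the broad pairs, 736 (69.4%) shared 90% or more, against 33.9% of all matched pairs. A shift of a given size takes a smaller share of a wider pair, and the limit on both widths removes pairs with a narrow partner. Sorted by the mean of both widths, the median share was 85.4% under 1000 bp and 80.4% at 1000 to 1500 bp. It was 88.1% at 2000 to 2500 bp and 93.0% at 5000 bp or more. The higher shares are therefore not read as a trait of broad domains. The lowest share was 46.9%, and 58 pairs (5.47%) shared less than 75%.

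A small number of boundaries moved far. Shifts of 1000 bp or more outward occurred at 62 boundaries (2.92%), close to the 2.52% of boundaries of all matched pairs. They lay on 17 chromosomes, 28 of them at the lower and 34 at the higher coordinate. Beyond the knockout edge the next wild-type peak lay a median of 14377 bp away, and in 6 cases within 1 kb. Shifts of 1000 bp or more inward occurred at 16 boundaries (0.754%, against 0.373% in all matched pairs), of which 4 were on chromosome 4. At these inward boundaries the next knockout peak lay a median of 5524 bp beyond the wild-type edge. The inward boundary on chromosome 13 had no knockout peak beyond it and does not enter this median.

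The widest broad pair lay on chromosome 1, 90169069 to 90189538 in the wild type (20470 bp) and 90168025 to 90189726 in the knockout (21702 bp). In both lists it was more than 10 kb wider than any other broad pair. Its lower boundary lay 1044 bp further out in the knockout and its higher boundary 188 bp further out. A wild-type-only peak stood 4.33 kb away, whereas the nearest knockout peak was 64.0 kb away. Whether this stretch is repeated or poorly mapped sequence was not tested.

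Next came a pair on chromosome 14, 29316865 to 29325398 in the wild type (8534 bp) and 8710 bp wide in the knockout, with boundary shifts of 218 and -42 bp. It stood apart from other H2A.Z sites, with the nearest wild-type peak 151 kb and the nearest knockout peak 126 kb away. On chromosome 19, 45148608 to 45157135, a wild-type peak of 8528 bp matched a knockout peak of 9279 bp, which was wider on both sides by 414 and 337 bp. On chromosome 6, 120137510 to 120145863, a peak of 8354 bp matched one of 9611 bp, and nearly all of the gain lay at the lower boundary (1301 bp, against -44 bp at the other). Of these 3 pairs, the first changed in width by 176 bp, the second widened on both sides and the third mainly on a single side. None of them was narrower in the knockout, as some other wide pairs were.

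Of the 15 widest pairs, ranked by the narrower peak of the pair, 9 were wider and 6 narrower in the knockout, and 12 differed by 10% or less. Chromosome 11 held 5 of them. The pair at 101030685 to 101038623 measured 7939 bp in the wild type and 7840 bp in the knockout, and the one at 68929980 to 68938088 measured 8109 and 7734 bp. At 53571410 to 53578944 the knockout peak measured more, 8424 bp against 7535 bp. The pair at 23975420 to 23982717 was 7298 bp in the wild type and 7286 bp in the knockout and shared 99.1% of its joined extent. At 69228567 to 69235813 the widths were 7247 and 7091 bp. Apart from the pair that widened by 889 bp, the differences on this chromosome lay between -12 and -375 bp.

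The other wide pairs were spread over 4 chromosomes. Chromosome 2 held 3 of the 15 widest, with wild-type peaks starting at 115886829, 127947627 and 165707026. Their widths were 7284 bp in the wild type and 8762 bp in the knockout for the first, 7131 and 7151 bp for the second, and 7821 and 7087 bp for the last. The first grew mainly at its lower boundary, by 1149 bp, and the last lost 1301 bp there while it gained 567 bp at the other end. The pair on chromosome 9 at 56918386 to 56925585 was the closest match among the 15, with 7200 bp in the wild type, 7151 bp in the knockout and 99.3% of the joined extent shared. It had no other peak of either list within 50 kb. The last 2 lay on chromosome 6 (start 127098351, 7724 bp in the wild type and 7844 bp in the knockout) and on chromosome 8 (start 73012582, 7690 and 7894 bp). Among the 15 widest, 9 shared 95% or more of their joined extent.

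**Figure D3:**
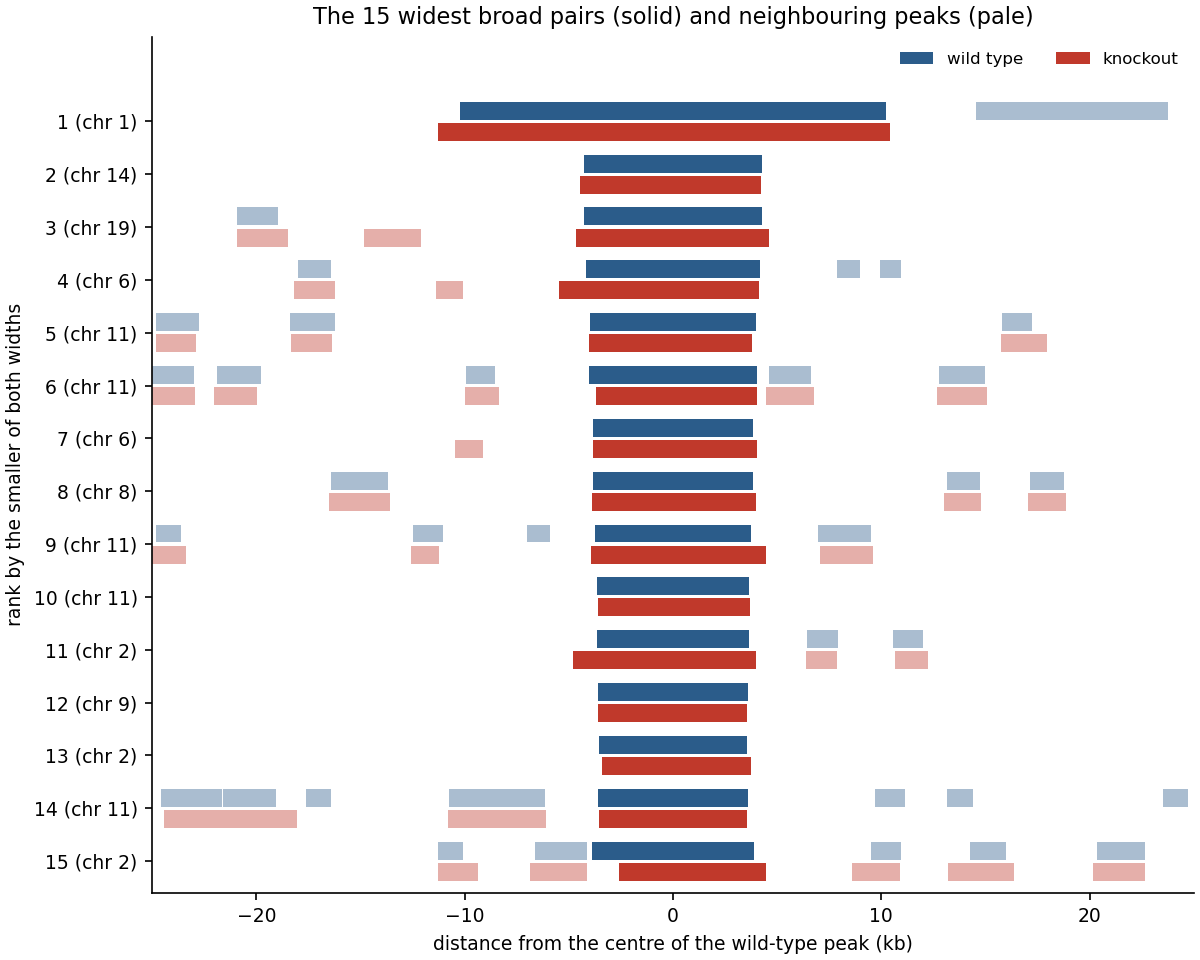
Map of the 15 widest broad pairs, ranked from the top by the narrower peak of the pair, with distance from the centre of the wild-type peak on the x axis (kb); blue bars are wild-type peaks, red bars knockout peaks, solid bars the pair itself and pale bars other peaks of the same list. Edges of most pairs fall close together, the pair on chromosome 1 is 20470 and 21702 bp wide, and the pairs at ranks 4 and 11 extend to lower coordinates in the knockout by 1301 and 1149 bp.

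The largest gains came from an advance of 1 or both edges over more than 1 kb. On chromosome 15, 5191436 to 5195652, a wild-type peak of 4217 bp matched a knockout peak of 8639 bp. Its lower boundary lay 4342 bp further out, and its higher boundary only 80 bp. On chromosome 9, 114434559 to 114438507, the widths were 3949 and 7780 bp, with 3 knockout-only peaks within 10 kb. On chromosome 15, 79779177 to 79783881, the widths were 4705 and 8408 bp. The next pairs were both on chromosome 5, starting at 115606565 and 121834439, with gains of 2916 and 2775 bp. In each of these 5 pairs between 48.8% and 58.2% of the joined extent was covered in both lists, so they stood far from the median of 93.2%.

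The 5 largest losses ran from -2918 to -1422 bp, and each came from an inward shift of over 1 kb at a single boundary. On chromosome 13, 120275867 to 120283249, a wild-type peak of 7383 bp matched a knockout peak of 4465 bp whose higher boundary had a shift of -3166 bp. That knockout peak was the last of its list on the chromosome. On chromosome 4, 119958842 to 119964483, the widths were 5642 and 3763 bp, and the lower boundaries lay 10 bp apart. The other 3 differences were -1480 bp at the pair starting at 97829786 on chromosome 15, -1446 bp at 123604036 on chromosome 8 and -1422 bp at 144479236 on chromosome 4.

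Broad pairs were present on all 20 chromosomes of the lists, but at unequal rates. They made up 5.90% of matched pairs on chromosome 15 (92 of 1560, 95% interval 4.78 to 7.18%). Chromosome 8 followed with 4.89%, then chromosome 10 with 4.65% and chromosome 11 with 4.60%. On these 4 chromosomes the interval lay above the overall 3.66%. The lowest shares were 1.74% on chromosome 16 (16 of 922, 95% interval 0.995 to 2.80%), 1.95% on chromosome 1 and 2.16% on chromosome 6. On those 3 and on chromosomes 3 and 13 the interval lay below the overall share, and on the other 11 it included it. Chromosome 11 held most broad pairs (103), and chromosomes 10, 11 and 15 together held 26.2% of the broad pairs and 19.3% of all matched pairs.

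Chromosomes with few broad pairs were in part those whose broad wild-type peaks were few. Chromosome 16 had 16 broad wild-type peaks and chromosome 1 had 38, against 101 and 198 broad knockout peaks. All 16 on chromosome 16 and 84.2% on chromosome 1 were members of a broad pair, but only 15.8% and 16.2% of the broad knockout peaks were. Chromosome 4 had the opposite proportions, with 155 broad wild-type and 99 broad knockout peaks. There 49.0% of the broad wild-type and 76.8% of the broad knockout peaks were members. The list with fewer broad peaks, and so with the larger share of them in pairs, was the wild type on chromosomes 1 and 16 and the knockout on chromosome 4.

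Across chromosomes the share of broad pairs was higher where matched pairs were dense. The number of matched pairs ran from 3.62 per Mb on the X chromosome to 18.9 per Mb on chromosome 11. Its relation with the percentage of broad pairs over the 20 chromosomes had r = 0.75 (Pearson) and rho = 0.785 (Spearman), and without chromosomes 11 and X r was 0.75. These chromosomes come from a single pair of libraries and are not replicates.

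The width difference of broad pairs followed their chromosome. The 16 broad pairs of chromosome 16 had a median of 592.5 bp (95% interval 325 to 773 bp). Chromosome 15 had 304.5 bp and chromosome 1 had 290.5 bp. On chromosome 4 it was -54 bp (95% interval -137 to -4 bp, 76 pairs), and the knockout peak was wider in 27 of 76 pairs (35.5%). Chromosomes 6, 11, 12 and 14 had intervals that included 0, with medians of 17, 23, 60 and 176 bp. On the other 15 the interval lay above 0. All 13 broad pairs of the X chromosome were wider in the knockout, by 90 to 1661 bp. Medians of the other matched pairs, which share no peak with the broad pairs, stood in nearly the same order. Chromosome 16 had 409 bp, chromosome 1 had 410.0 bp and chromosome 4 had -31 bp. Over 20 chromosomes the Pearson r between the medians of broad and other pairs was 0.884 and the Spearman rho 0.916, and without chromosomes 4 and 12 r was 0.843. Without chromosome 4 the knockout peak was wider in 77.6% of broad pairs.

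**Figure D4:**
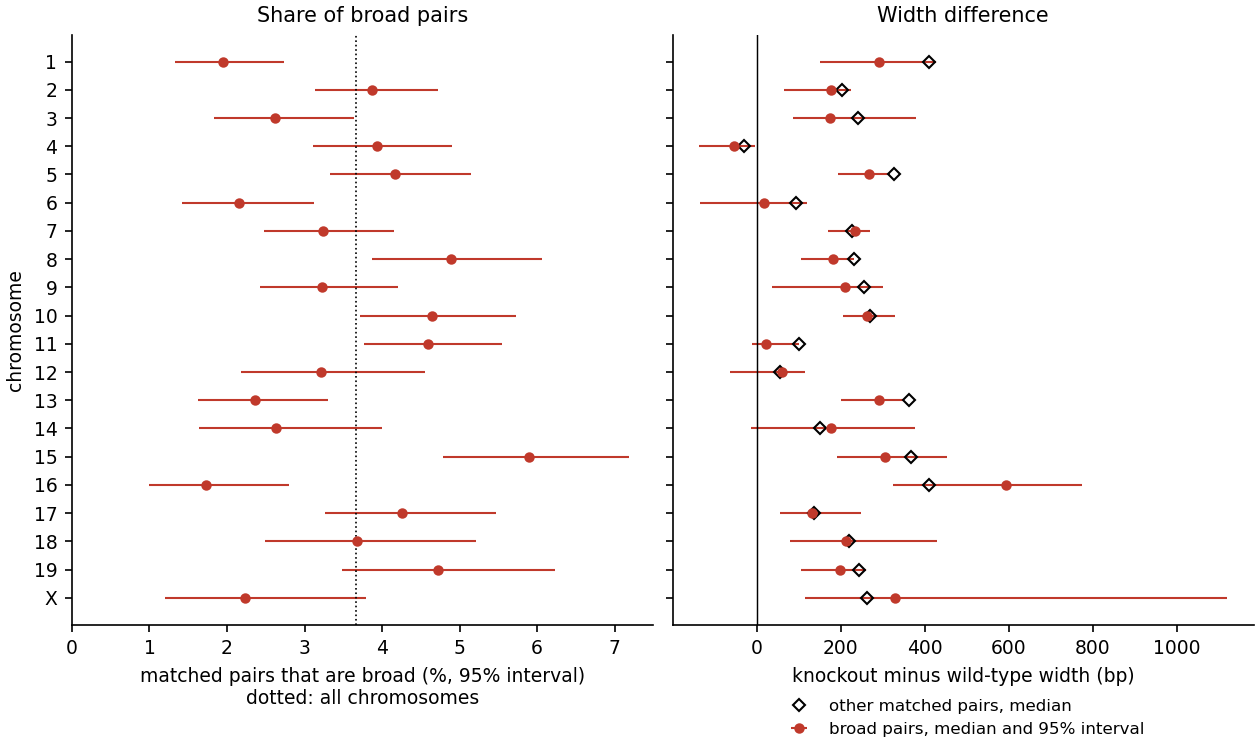
Percentage of matched pairs that were broad (left, with exact 95% intervals, the dotted line marking 3.66% over all chromosomes) and knockout minus wild-type width in bp (right) on each chromosome (y axis); red points with bars are broad pairs (right panel: median and 95% interval) and open diamonds are medians of the other matched pairs. Chromosome 15 has the highest share, 5.90%, and chromosome 4 is the one chromosome where the median difference of the broad pairs is negative.

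Along the chromosomes broad pairs were scattered rather thinly. In windows of 10 Mb, 236 of the 275 windows with a matched pair held a broad pair, with a median of 3. The largest number was 19, on chromosome 15 at 70000001 to 80000000, where there were 287 matched pairs. The window at 120000001 to 130000000 on chromosome 10 held 18 among 203 matched pairs (8.87%). Windows without a broad pair numbered 39 and held a median of 29 matched pairs, but some were well filled. The window at 100000001 to 110000000 on chromosome 3 had 169 matched pairs and none was broad, and the window at 90000001 to 100000000 on chromosome 16 had 157 and none. The longest stretch between successive broad pairs, 33.3 Mb, was also on chromosome 16, from 52455224 to 85800602.

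Successive broad pairs lay a median of 831 kb apart (quartiles 226 and 2730 kb). Most stood alone, since 871 of 1061 had no other broad pair within 50 kb. The other 190 formed 86 groups, of which 73 held 2 broad pairs. At least 1 other broad pair lay within 50 kb of 17.9% of broad pairs (95% interval 15.6 to 20.3%) and of 11.6% of other matched pairs. The largest group held 5 broad pairs within 98.3 kb on chromosome 3, 89029611 to 89127877. Their wild-type widths were 3555, 4155, 6105, 3796 and 4926 bp and their knockout widths 3772, 4302, 6463, 3763 and 4959 bp. All 5 differed little, by -33 to 358 bp.

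There were 3 groups of 4 broad pairs. On chromosome 11 the group from 68851578 to 68938088 ended in the 8109 bp peak named above, and its differences lay between -375 and 241 bp. A second group on chromosome 11, from 69613723 to 69737129, had differences between -221 and 23 bp. On chromosome 15, 98591978 to 98639726, 4 broad pairs lay within 47.7 kb. Their wild-type widths were 3595, 5852, 5048 and 6339 bp, and the knockout peaks were wider by 1486, 843, 56 and 22 bp. Within this last group close neighbours thus differed from one another more than in the other 2 groups of 4.

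Distances to neighbouring H2A.Z peaks were slightly shorter for broad pairs than for the others. These distances were not used to choose the pairs, except that a neighbour joined to the peak in one list would have prevented the match. Distances and windows run from the peak edges, however, so a wider peak stands nearer its neighbours through its width alone. Median wild-type widths were 4057 bp in broad pairs and 1815 bp in other matched pairs, and median knockout widths 4306 and 2092 bp. Whether the distances differ beyond this was not tested. The nearest other peak of the wild-type list was a median of 7840 bp away (95% interval 6814 to 8547 bp), and 8704 bp for the other matched pairs. In the knockout list it was 6518 bp (95% interval 5711 to 7217 bp), against 7342 bp. Another wild-type peak lay within 10 kb of 57.6% of broad pairs and 54.1% of other pairs, and another knockout peak within 10 kb of 62.5% and 58.2%. At 50 kb the order was no longer the same, with a wild-type neighbour for 87.8% of broad and 88.9% of other pairs. No other peak of either list lay within 50 kb of 92 broad pairs (8.67%), against 7.46% of the other pairs. Broad domains were thus found both in crowded stretches and on their own, and the difference in either direction was small.

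**Figure D5:**
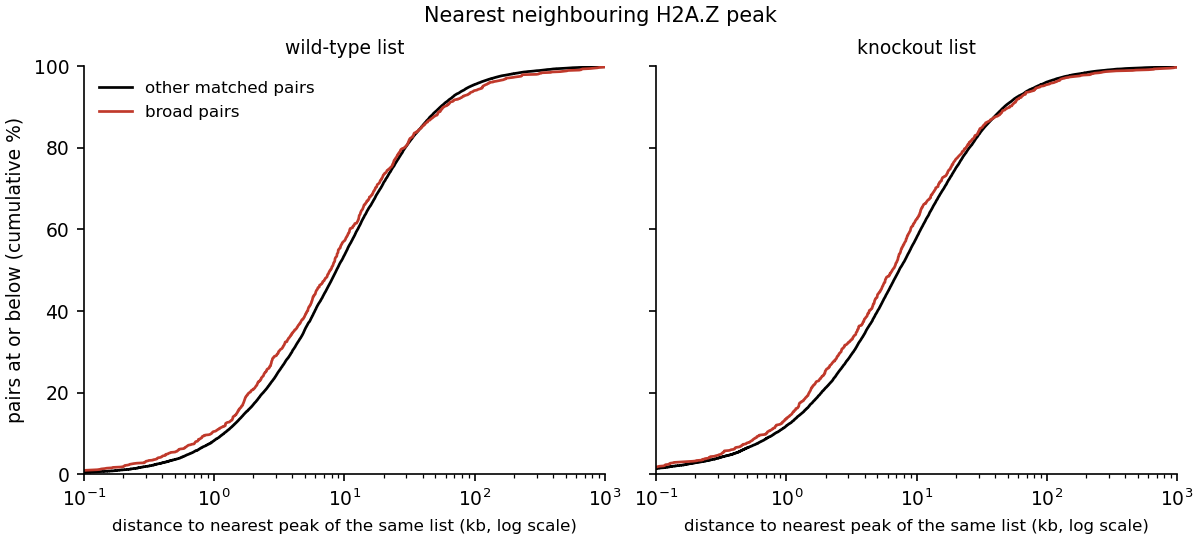
Distance to the nearest other peak of the same list (x axis, kb, log scale from 0.1 to 1000) against the cumulative percentage of pairs at or below it (y axis), for the wild-type list (left) and the knockout list (right); red is the broad pairs and black the other matched pairs. The red curve runs slightly above the black one at short distances (medians of 7840 and 8704 bp in the wild-type list). At long distances it runs below the black one (95th percentiles of 115535 and 91952 bp in that list).

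Peaks found in a single genotype were about as frequent beside broad pairs as beside others. A knockout-only peak lay within 10 kb of 238 broad pairs (22.4%, 95% interval 19.95 to 25.1%) and of 21.3% of other pairs. A wild-type-only peak lay within 10 kb of 161 broad pairs (15.2%, 95% interval 13.1 to 17.5%) and of 14.5% of other pairs. On chromosome 4 the proportions changed places for both kinds of pair. There 35.5% of broad pairs had a wild-type-only neighbour and 9.21% a knockout-only neighbour, and the other pairs of that chromosome had 33.7% and 7.87%.

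Compared with 2 neighbouring classes, broad pairs held a middle place. A knockout-only peak lay within 10 kb of 28.6% of the 1123 pairs that were broad in the knockout alone, and of 18.02% of the 172 pairs that were broad in the wild type alone. For wild-type-only peaks the shares were 11.6% and 25.6%. In these libraries, with chromosomes pooled, pairs broad in one genotype alone thus had more neighbours of that genotype alone than the broad pairs had. Chromosome 4 held 7.16% of the broad pairs, 1.07% of the pairs broad in the knockout alone and 32.0% of those broad in the wild type alone. Without chromosome 4, a wild-type-only peak lay within 10 kb of 13.6% of broad pairs. The share was 18.8% for the 117 pairs broad in the wild type alone (95% interval 12.2 to 27.1%). This was a smaller gap than with chromosome 4, and the interval includes the 13.6% of broad pairs. The shares for knockout-only peaks were then 23.5% of broad pairs and 28.6% of pairs broad in the knockout alone (95% interval 26.0 to 31.4%).

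With all chromosomes pooled, broad pairs with a knockout-only neighbour had larger gains. The median difference was 249 bp in the 207 broad pairs with a knockout-only but no wild-type-only peak within 10 kb. It was 162 bp in the 693 with neither, and 118.5 bp in the 130 with a wild-type-only peak alone. Without chromosome 4 the 3 medians were 263, 177 and 171 bp, so the last 2 were nearly equal. Among the other matched pairs the same medians were 316, 204 and 130 bp, and 323, 217 and 181 bp without chromosome 4. The gain also differed between chromosomes, and chromosomes other than 4 were not taken one by one. Whether the gain goes with such neighbours within a chromosome was not tested.

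The direction of a broad pair was also set beside that of the nearest other matched pair within 50 kb, which 895 broad pairs had. That neighbour was wider in the knockout beside 84.8% of the 665 broad pairs that were wider, and beside 67.2% of the 229 that were narrower. Within single chromosomes the relation varied. On 13 chromosomes at least 5 broad pairs of each direction had such a neighbour, and the first share was the higher one on 10 of them and the lower one on 3. The shares were 38.9% and 36.6% on chromosome 4, 58.2% and 68.9% on chromosome 11, and 91.7% and 44.4% on chromosome 12. Spearman's rho of the 2 differences was 0.249 over all chromosomes and had a median of 0.12 over the 13, from -0.07 on chromosome 11 to 0.692 on chromosome 12, which had 21 such pairs. The other matched pairs had similar values over all chromosomes. Their neighbour was wider in the knockout beside 82.5% of the 19076 that were wider and 69.3% of the 4808 that were narrower. Their rho was 0.208, so the relation is not particular to broad pairs. Neighbours and broad pairs share both libraries and their chromosome.

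Close neighbours went with smaller shifts of the facing edge. At the 114 boundaries of broad pairs with a wild-type peak under 1 kb beyond them the median shift was 15 bp (95% interval -8 to 43 bp), and 53.5% lay further out in the knockout. At 1 to 3 kb the median was 78 bp, at 3 to 10 kb 84 bp, at 10 to 50 kb 86 bp and beyond that 70 bp. The other matched pairs had 48 bp under 1 kb and 91 to 100 bp at larger distances. An edge that advances into a close neighbour joins it, and the pair is then no longer matched, so the rule itself limits outward shifts at short distances.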

How the data were processed

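H2A.Z ChIP-seq peaks of 1 wild-type and 1 Anp32e knockout library were used as deposited by the authors, 2 lists with the chromosome, start and end of each peak and no other column. Per the file headers they were saved from Galaxy, and the submitters' processing notes name build mm9 and, as tools, MACS 1.4.2, HOMER, Bowtie 0.12.8 and CASAVA 1.8.2. What each did, the peak threshold and whether the 2 inputs were used is not given in the sources used here. Pairing and counting used pandas 2.3.3 and numpy 2.4.6 in Python 3.11.15, intervals used scipy 1.17.1, and figures were drawn with matplotlib 3.10.9. Starts were read as counting from 0 and are printed counting from 1. Shares carry exact Clopper-Pearson 95% intervals and medians exact 95% intervals from order statistics. No test was made, since each genotype has 1 library. Pairing was tested on simulated lists with known pairs and shifts, which it returned. The pairs named were the 15 widest, the 5 largest gains and losses, 3 on each side of the limit and the largest groups within 50 kb. The members and these lists were chosen with earlier results of these data known. Gene lists and cell type markers set down for annotation on mm9 were not used here.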

Additional observations from a re-analysis of the deposited data

How the results depend on the processing

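No median difference or boundary shift changed sign under 10 alternatives set down at the start and 2 added after seeing the data. Of 120 alternative values, 85 stayed within the interval of the reported value (counts within 1.5 times) and 35 did not. Overlap of 50% of both peaks gave 80.9% of broad wild-type and 41.3% of broad knockout peaks in pairs, and a median of 92.9% of the joined extent shared. A width of 3000, 4000 or 5000 bp gave 2324, 520 or 144 pairs, 79.6%, 73.4% or 68.2% of wild-type and 44.4%, 35.6% or 30.5% of knockout peaks, and 92.2%, 93.7% or 94.7% shared, with the nearest wild-type peak at 6.08 kb for 5000 bp. The widest 5% of each list (from 3287 and 3708 bp) gave 57.6% and 51.8%, a difference of 258.5 bp, 81.4% wider in the knockout, shifts of 104 and 106 bp and 92.1% shared. Merging peaks within 500 bp gave 1523 pairs, against 1061, and 41.9% of knockout peaks. That count lies within the 1.5 times allowed but is clearly larger. Leaving out chromosomes 1, 4, 12, 13 and 16 gave 79.9% and 41.1%. Of the 2 added, leaving out chromosome 4 gave 79.5% of wild-type peaks and 77.6% wider in the knockout. A mean width of 3500 bp gave 1496 pairs, with 81.0% of wild-type and 52.2% of knockout peaks. Its difference was 245 bp, with 77.4% wider in the knockout, shifts of 101 and 103 bp and 91.1% shared. The cause was not tested. The alternatives on transcription starts and sequence were not run, because the gene tables at hand are on another build. No paired analysis was possible because there was only 1 library of each genotype. Since depth is unknown, no width difference can be set against it.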
